A study of Mus musculus with 14 samples.

Results

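The receptors for interleukin-3 (IL-3), granulocyte-macrophage colony-stimulating factor (GM-CSF) and interleukin-5 (IL-5) were followed through the probe sets of their 5 chain genes, Csf2rb, Csf2rb2, Csf2ra, Il3ra and Il5ra. They were chosen by symbol in the array's annotation, which gave 7 probe sets with 1 of these symbols and 1 that carries both beta chain symbols, of 45101 probe sets in all. A log2 value of at least 6 on at least 3 of the 14 arrays was reached by 4 of the 8, all of them beta chain probe sets. The other 4, all of the alpha chains, lay in a range where signal and background are hard to separate.

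Blood of mouse embryos at E12.5 (embryonic day) was measured on Affymetrix mouse 430 2.0 arrays, which report each probe set as a log2 value. The Cbfb+/MYH11 embryos (4 arrays) carry a knocked-in Cbfb-MYH11 fusion on 1 Cbfb allele and came from chimeras mated to C57/Bl6 females. Their WT littermates (4 arrays) have the genotype Cbfb+/+. Matings of Cbfb+/- parents gave the Cbfb-/- embryos (3 arrays), which lack Cbfb, and Cbfb+/+ littermates (3 arrays). Each RNA was from the pooled blood of 8 to 10 embryos of a genotype, and the arrays are titled technical replicates, so p-values measure only the spread between these arrays, which may be technical. How many pools stand behind the arrays of a group is not stated in the sources used here.

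CBFB is the non-DNA-binding partner of the RUNX transcription factors, and its fusion to smooth muscle myosin heavy chain is known from acute myeloid leukemia with an inversion of chromosome 16. IL-3, GM-CSF and IL-5 act through receptors made of a ligand-specific alpha chain, which binds the cytokine weakly alone, and a beta chain that carries the signal through the kinase JAK2 and the STAT5 proteins. In mice Csf2rb encodes the common beta chain used by all these cytokines, while Csf2rb2, a neighbouring duplicate, encodes a beta chain specific to IL-3. In blood these receptors are known from progenitors, mast cells, basophils, eosinophils, neutrophils and macrophages.

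The blood was red-cell blood by its markers. The embryonic globin genes Hba-x, Hbb-bh1 and Hbb-y had group means from 13.98 to 14.54, Alas2, the heme synthesis enzyme of red cells, from 13.25 to 13.50, and Slc4a1, the red cell anion exchanger, from 12.92 to 13.22. The Cbfb probe set read 8.44, 8.56, 6.91 and 7.06 on the Cbfb+/MYH11 arrays, against 6.62, 6.57, 8.31 and 8.14 on the WT arrays, and 7.03, 6.80 and 6.98 on the Cbfb-/- arrays, against 6.52, 6.56 and 6.27 on the Cbfb+/+ arrays. Whether its probes lie in the part that was deleted or fused was not determined, so it says nothing on the labels. In the first cross its order reversed between arrays 1 and 2 and arrays 3 and 4. These 2 array pairs also stood apart in general: the SD of the log2 differences between arrays of a pair was 0.114 to 0.276 and between pairs 0.365 to 0.714. Values within each pair are therefore given for Csf2rb, Csf2rb2 and some other genes. Where they are not given, the pairs need not agree in size. Within arrays 1 and 2 and within arrays 3 and 4 the Cbfb+/MYH11 change was -3.33 and -1.28 for Ptprc and 0.73 and 2.03 for Spi1, but 0.97 and 0.92 for Socs2.

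The 250 bases before the start of Csf2rb2, the member with the largest change, are shown. No promoter of Csf2rb was available, so whether the 2 beta chain genes share these motifs was not examined. They are from RefSeq (GRCm38.p6, chr15:78305722-78305971, minus strand, 5′ to 3′), with capitals marking an ETS core, a GATA core and a STAT palindrome in that order.
Csf2rb2: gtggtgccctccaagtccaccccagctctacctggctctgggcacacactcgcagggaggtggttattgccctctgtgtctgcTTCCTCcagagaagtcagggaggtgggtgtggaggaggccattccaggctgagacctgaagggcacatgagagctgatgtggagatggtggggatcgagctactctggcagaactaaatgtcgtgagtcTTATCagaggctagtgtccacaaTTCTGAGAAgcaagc
The letters of 5 motifs were searched on both strands in the 300 bases around each start, and a position is that of the first base of the match as printed. GATAA, the core of GATA factor sites, was found once (as its complement TTATC), 38 bases before the start, and is held by 25.4% of the 32851 mouse promoters of this length. GAGGAA, the core of sites for the ETS factor PU.1, was found 2 times, 167 bases before and 30 bases after the start, and is held by 28.3% of promoters. TTCNNNGAA, the STAT palindrome, was found once, 15 bases before the start, and is held by 8.3%. TGTGGT, the core of RUNX sites (held by 16.8%), and TTGCNNAA, a C/EBP core (held by 10.8%), had no match in this window. The matches did not overlap each other.

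The promoters of the alpha chains held fewer of these letters, and 4 of the 5 members, all but Csf2rb, matched the promoter table. The windows below show each kind of match they had, with the matched letters in capitals.
Il5ra GATA core: gtagggcaGATAAataccttt
Il5ra ETS core: agaaaaaaGAGGAAaca
Csf2ra ETS core: ctgcagatGAGGAAgaggaagc
Il3ra C/EBP core: tcaggaagTTGCTCAAtctcggga
Il5ra held 1 GATA core (73 bases before its start) and 1 ETS core (42 bases after it), Csf2ra held 2 adjoining ETS cores (14 and 8 bases before its start) and Il3ra 1 C/EBP core (134 bases before its start). None of these 3 held the RUNX or STAT letters. A match is a string of letters and not a measured site.

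Both beta chain genes rose in Cbfb+/MYH11 blood and the alpha chains showed no called change. Csf2rb was 16.8-fold and 19.8-fold higher than in WT blood by its 2 probe sets, and Csf2rb2 was 48.0-fold higher. With the limma test and Benjamini-Hochberg adjustment over 45037 probe sets, a probe set was called at 1.5-fold or more with an adjusted p below 0.05. Of the 7 probe sets with 1 symbol, 3 rose and 0 fell, where 10.5% of all probe sets rose, 2.94% fell and 13.5% were called in either direction. Fewer cells of a type and less RNA per cell cannot be told apart in such pooled blood, and neither can the reverse.

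Csf2rb, the common beta chain, read 11.37, 11.30, 11.57 and 11.64 at its first probe set (1455660_at) on the 4 Cbfb+/MYH11 arrays, against 7.41, 7.52, 7.38 and 7.31 on the 4 WT arrays. The groups did not overlap, and the lowest Cbfb+/MYH11 array was 3.59 above the highest of the other 10 arrays. The share of all probe sets that separate in this way was not counted, so for the beta chain probe sets the separation is only described. The log2 change was 4.07 (SE 0.10, 95% interval 3.85 to 4.28, limma adjusted p = 2.39e-12), rank 14 of 45037 by size of rise. The second probe set (1421326_at) read 10.69, 10.63, 10.91 and 11.16 in Cbfb+/MYH11 blood, against 6.15, 6.46, 6.80 and 6.73 in WT blood. Its groups were as clearly apart, with a log2 change of 4.31 (SE 0.15, limma adjusted p = 1.16e-10) and rank 9. Within arrays 1 and 2 the changes were 3.88 and 4.35 for the 2 probe sets, and within arrays 3 and 4 they were 4.26 and 4.26.

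Csf2rb2, the IL-3-specific beta chain, read 11.02, 11.04, 11.17 and 11.29 (1449360_at) on the Cbfb+/MYH11 arrays, against 5.17, 5.62, 5.69 and 5.70 on the WT arrays. All 4 Cbfb+/MYH11 arrays were high and close together, and all 4 WT arrays were below 6. The log2 change was 5.59 (SE 0.12, limma adjusted p = 9.32e-13), the rank 3 rise of 45037, with a 95% interval of 40.0-fold to 57.7-fold. A WT level this low may be background in part, in which case the fold is understated. Within the array pairs the change was 5.63 and 5.54, and for none of the 8 probe sets was the difference between the pairs called.

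The probe set that carries both symbols (1450200_s_at) read 9.22, 9.23, 8.996 and 9.01 in Cbfb+/MYH11 blood, against 7.01, 7.24, 6.55 and 6.52 in WT blood. It rose by 2.29 on the log2 scale (4.88-fold, limma adjusted p = 9.85e-08, rank 119), so its change was smaller than that of each single-gene probe set. The 2 genes are near-identical copies, and how far each probe set reads the other gene was not tested.

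**Figure D1:**
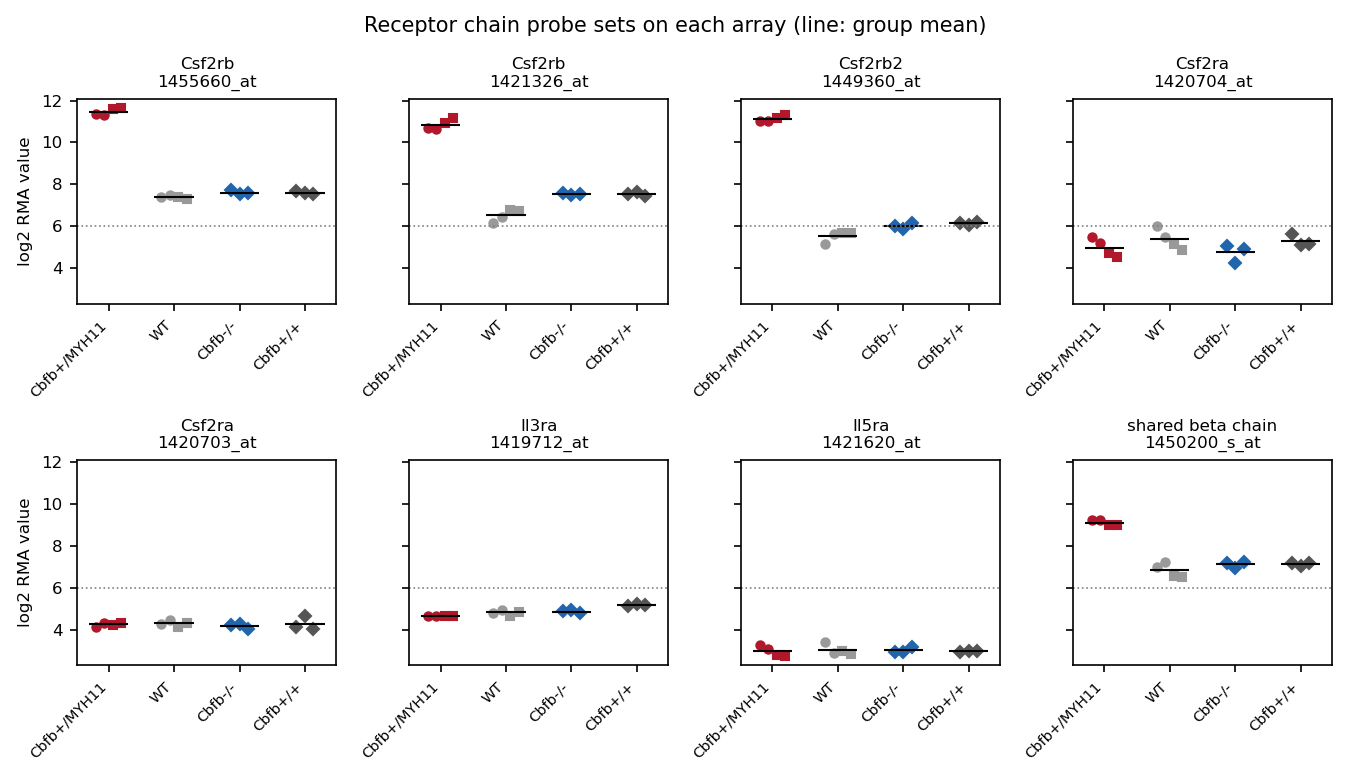
Log2 RMA value (vertical axis) of the 8 receptor chain probe sets on each of the 14 arrays, by group; circles are arrays 1 and 2 and squares arrays 3 and 4 of the Cbfb+/MYH11 cross, diamonds the arrays of the other cross, the black line is the group mean and the dotted line marks 6. The 4 Cbfb+/MYH11 arrays sit above all 10 other arrays in the 4 beta chain panels and overlap the WT arrays in the 4 alpha chain panels.

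The alpha chains were low on all arrays. Csf2ra, the GM-CSF-binding chain, read 5.49, 5.19, 4.71 and 4.54 (1420704_at) in Cbfb+/MYH11 blood, against 6.04, 5.47, 5.14 and 4.88 in WT blood. The groups overlapped, and arrays 1 and 2 averaged above arrays 3 and 4 in both genotypes, at 5.34 over 4.62 in Cbfb+/MYH11 and 5.76 over 5.01 in WT. Its log2 change of -0.40 (95% interval -0.96 to 0.16) was not called, with a limma adjusted p of 0.266. Between arrays of the same number Csf2ra differed by -0.55, -0.28, -0.43 and -0.34, but the numbers were not shown to pair the arrays. Within arrays 1 and 2 the change was -0.42 and within arrays 3 and 4 -0.38, neither called. With the replicate block, which takes arrays of the same number as paired, its limma adjusted p was 0.0196. The change stayed under the 1.5-fold floor there. The other Csf2ra probe set (1420703_at) stayed between 4.05 and 4.65 on all 14 arrays.

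Il3ra, the IL-3-binding chain, read 4.66, 4.67, 4.67 and 4.65 (1419712_at) in Cbfb+/MYH11 blood, against 4.81, 4.96, 4.67 and 4.86 in WT blood. The Cbfb+/MYH11 arrays were at the lower end and the groups overlapped, with a log2 change of -0.16 (95% interval -0.35 to 0.03, limma adjusted p = 0.183). Il5ra, the IL-5-binding chain, ranged from 2.76 to 3.26 (1421620_at) in Cbfb+/MYH11 blood and from 2.84 to 3.39 in WT blood. Its log2 change was -0.07, with a 95% interval of -0.36 to 0.22 and a limma adjusted p of 0.725. At these levels a change of the transcripts themselves could be hidden under background, so the intervals bound only the change in signal.

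In Cbfb-/- blood none of the chains was called against Cbfb+/+ blood, where 9.69% of all probe sets were called (6.66% higher and 3.03% lower). Csf2rb read 7.71, 7.55 and 7.58 (1455660_at) on the Cbfb-/- arrays, against 7.71, 7.57 and 7.55 on the Cbfb+/+ arrays. The groups lay on top of each other, and the log2 change was 0.00 (95% interval -0.24 to 0.25). The second probe set (1421326_at) read 7.58, 7.48 and 7.53 in Cbfb-/- blood, against 7.54, 7.63 and 7.44 in Cbfb+/+ blood, a change of -0.01 (95% interval -0.37 to 0.35). Csf2rb2 read 6.03, 5.87 and 6.15 in Cbfb-/- blood, against 6.17, 6.07 and 6.22 in Cbfb+/+ blood. These groups overlapped near 6, with a log2 change of -0.14 (95% interval -0.44 to 0.17, limma adjusted p = 0.569). The probe set of both symbols changed by -0.01.

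The alpha chains in this cross were again dim. Csf2ra read 5.07, 4.26 and 4.94 (1420704_at) in Cbfb-/- blood, against 5.62, 5.13 and 5.16 in Cbfb+/+ blood, a log2 change of -0.54 (95% interval -1.19 to 0.10, limma adjusted p = 0.253). Over 24 alternative settings its lowest limma adjusted p was 0.01375, and it was called in none. Il3ra read 4.88, 4.94 and 4.78 in Cbfb-/- blood, against 5.15, 5.25 and 5.17 in Cbfb+/+ blood. All 3 Cbfb-/- arrays were below all 3 Cbfb+/+ arrays for both genes. The share of all probe sets that separate in this way was not counted, so the separation carries no weight here. The Il3ra difference of -0.32 (limma adjusted p = 0.0452) was under the 1.5-fold floor and on a dim probe set, and neither gene was called. Il5ra changed by 0.06 (limma adjusted p = 0.846).

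The 2 effects were then tested against each other, since the design sets the fusion beside loss of Cbfb. The difference of the effects was called for 7.52% of all probe sets (4.72% higher in the fusion effect and 2.80% lower). It was 4.06 (limma adjusted p = 1.11e-09) and 4.32 (3.75e-08) for Csf2rb, 5.72 (3.06e-10) for Csf2rb2 and 2.30 (1.80e-05) for the probe set of both. For the alpha chains it was at most 0.16 in size and not called, with 95% intervals as wide as -0.71 to 1.00 for Csf2ra. With arrays averaged to 6 putative pools (arrays 1 and 2, and 3 and 4, of each genotype of the first cross, and all arrays of a genotype of the second), the beta chain rises in Cbfb+/MYH11 blood were still called for the 3 single-gene probe sets, with highest adjusted p of 0.0120, 0.0230 and 0.0120 over all alternatives, but not for the shared one (adjusted p = 0.0633). In that fit the differences of the effects were not called, with adjusted p of 0.203, 0.286, 0.157 and 0.606.

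**Figure D2:**
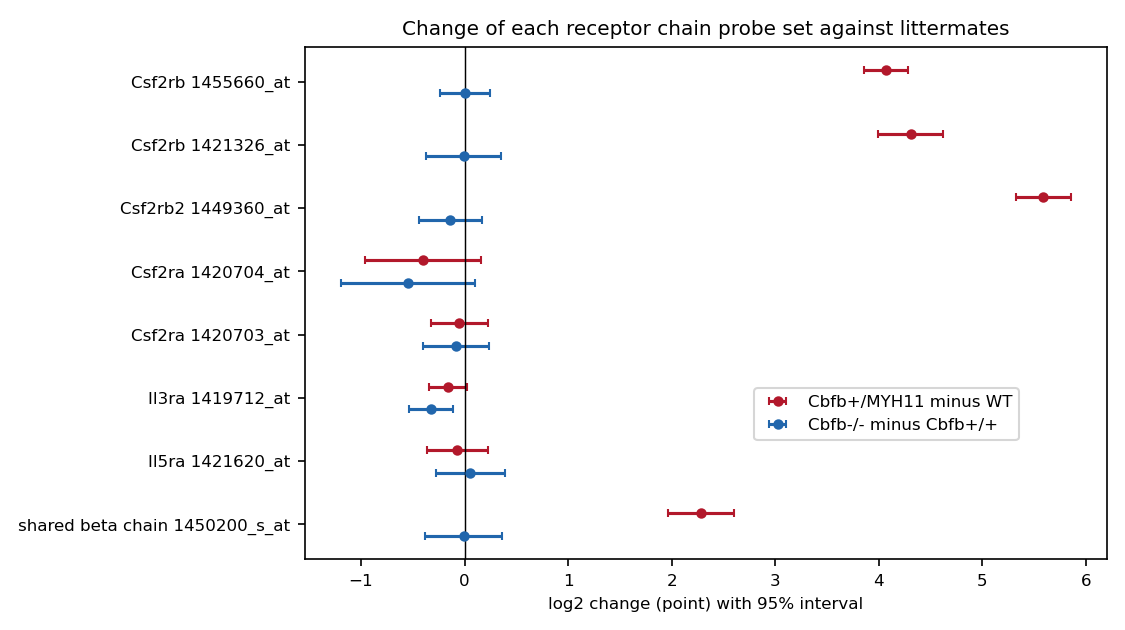
Log2 change (point) and its 95% interval (line) of each receptor chain probe set, Cbfb+/MYH11 minus WT in red and Cbfb-/- minus Cbfb+/+ in blue, from the limma fit of all 14 arrays. The red points of the 4 beta chain probe sets lie between 2.29 and 5.59, while their blue points and all points of the alpha chains lie near 0 or below it.

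The order of the 4 groups was the same at the top for every beta chain probe set, with Cbfb+/MYH11 first. Below it, Cbfb-/- and Cbfb+/+ did not differ beyond their spread. Cbfb+/+ was above WT, the other littermate group, by 1.00 at the second Csf2rb probe set (limma adjusted p = 0.00143) and by 0.61 at Csf2rb2 (adjusted p = 0.0118), both called, in a comparison that called 4.57% of probe sets (2.20% higher and 2.36% lower). The first Csf2rb probe set was only 0.21 above WT (adjusted p = 0.267), so the 2 probe sets of that gene disagree on the littermates. The Csf2rb2 call was lost without WT array 1 (0.48, adjusted p = 0.0142, under the fold floor) and without Cbfb+/+ array 3 (0.57, adjusted p = 0.0540), and both calls were lost with 6 pools. For Il3ra the Cbfb+/+ group was on top, 0.36 above WT (adjusted p = 0.0270, under the fold floor). The littermate groups differ in cross as well as in litter, so these cannot be told apart.

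The ligands were dim as well. Il3, Csf2 and Il5, which encode IL-3, GM-CSF and IL-5, were below 6 on every array. None was called in Cbfb+/MYH11 blood, where Csf2 was at -0.58 (SE 0.14, limma adjusted p = 0.006, under the 1.5-fold floor), Il5 at -0.23 and Il3 at -0.16, or in Cbfb-/- blood, where the values were -0.33, -0.23 and 0.00. Csf2 was past the floor and called as lower within arrays 3 and 4 (-0.64) and without Cbfb+/MYH11 array 1 (-0.68), Cbfb+/MYH11 array 2 (-0.59), WT array 3 (-0.62) or WT array 4 (-0.61). Counted by genes, each by its probe set with the highest mean, 14.3% of 18193 genes rose and 4.12% fell in Cbfb+/MYH11 blood (18.4% called), and 9.09% rose and 3.70% fell in Cbfb-/- blood (12.8% called). The median change of all genes was -0.11 in Cbfb+/MYH11 blood and -0.05 in Cbfb-/- blood, and relative to the median of all probe sets the Csf2rb2 change was 5.70 and the Csf2rb changes 4.18 and 4.42.

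Of the JAK and STAT genes, 1 of 8 measured rose and 2 fell in Cbfb+/MYH11 blood (median -0.22). Jak2, the kinase bound to the beta chain, was 0.83 higher (SE 0.12, limma adjusted p = 0.000121), a call that quantile normalization ended (0.44). Stat5a and Stat5b, the STATs these receptors activate, fell by 1.18 and 0.86. With Cbfb lost, 0 of 8 rose and 1 fell (median -0.34), Stat6, a STAT of the IL-4 and IL-13 receptors, by 0.67. That call was lost without Cbfb-/- array 3. The difference of the 2 effects was called for Jak2 (1.21) and not for Stat5a (-0.66), Stat5b (-0.58) or Stat6 (0.51).

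Adaptors and kinases below the receptor were mostly not called, with 2 of 14 up and 1 down in Cbfb+/MYH11 blood (median 0.03). Fyn, a SRC family kinase, rose by 1.36 there and by 0.99 in Cbfb-/- blood, where the call was lost without Cbfb-/- array 1 or 3 or Cbfb+/+ array 1 or 3. Syk, a kinase of immune receptor signalling, fell by 0.95 in Cbfb+/MYH11 blood and by 0.91 in Cbfb-/- blood, where the mean of its probe sets ended the call (-0.53). Nras, a small GTPase, rose by 0.60 in Cbfb+/MYH11 blood, a call that was lost with quantile normalization (0.19), within arrays 3 and 4 (0.56) and without WT array 1 (0.48) or Cbfb+/MYH11 array 4 (0.54). Quantile normalization turned the counts to 1 up and 2 down, with Pik3cd, a PI3-kinase subunit, at -0.92. Against Cbfb+/+ blood, 1 of 14 rose and 2 fell in Cbfb-/- blood, among them Irs2, an insulin receptor substrate, by 0.79.

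Inhibitors of these signals went both ways, with 4 of 14 up and 2 down in Cbfb+/MYH11 blood (median 0.16). Inpp5d, which encodes the lipid phosphatase SHIP1, rose by 1.73, Dok1, an adaptor that dampens RAS signalling, by 1.18, Socs2 by 0.95 and Cish by 0.81. The mean of its probe sets ended the Socs2 call (0.31), and quantile normalization the Cish call (0.39). Socs2 and Cish encode feedback inhibitors of cytokine receptors. Socs3, another of that family, fell by 1.04, and Ptprc, which encodes the leukocyte phosphatase CD45, fell by 2.30. The Cbfb-/- blood had 1 of 14 up and 2 down (median -0.25). There Inpp5d fell by 0.96, Ptprc fell by 1.53 and Cblb, a ubiquitin ligase, rose by 1.07. The Ptprc call was lost when any 1 array of that cross but Cbfb-/- array 1 was left out, and the Cblb call when any but Cbfb+/+ array 1 was. The Inpp5d effects had opposite signs, and their difference of 2.69 was called (limma adjusted p = 3.54e-05).

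Of the genes known as STAT5 targets, a list that shares Cish and Socs1 to Socs3 with the inhibitors, 6 of 18 rose and 2 fell in Cbfb+/MYH11 blood (median 0.06), with 4 down without Cbfb+/MYH11 array 2, WT array 3 or WT array 4. Myc, a growth regulator, rose by 1.07, Ccnd3, a G1 cyclin, by 1.14 (0.44 and not called by the mean of its probe sets), and Fos, an immediate early gene, fell by 1.47. Pim1, a kinase often used as a readout of STAT5, was at 0.04 and not called. Ccnd2, another G1 cyclin, rose by 1.81 (limma adjusted p = 0.0298). Its change was 2.89 within arrays 1 and 2 and 0.73 within arrays 3 and 4. The difference of the 2 effects was not called for Ccnd2 (-0.69). Quantile normalization moved the counts to 4 up and 5 down. Of the same list, 2 of 18 rose and 1 fell in Cbfb-/- blood (median -0.17). There the G1 cyclins Ccnd2 and Ccnd1 rose by 2.49 and 0.67, and the Ccnd2 call was lost when any 1 array of that cross was left out and the Ccnd1 call with quantile normalization (0.44). Pim2, a kinase, fell by 0.71, a call lost when any 1 array of that cross but Cbfb-/- array 3 was left out.

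Among 20 other cytokine receptors, 1 rose and 1 fell in Cbfb+/MYH11 blood (median -0.26). Only 5 of the 20 had a log2 value of at least 6 on at least 3 arrays, so changes of the others could be hidden under background. Epor, the erythropoietin receptor, was 0.65 higher, a call lost with quantile normalization (0.31), within arrays 3 and 4 (0.46) and without Cbfb+/MYH11 array 2 (0.52). Il13ra1, an IL-13 receptor chain, was at -0.64, a call lost in 10 of the 14 fits that left out 1 array, within arrays 3 and 4 (-0.22), with quantile normalization (-0.55) and by the mean of its probe sets (-0.31). Il13ra1 was dim, with a mean of 3.94 in Cbfb+/MYH11 blood and 4.58 in WT blood. Csf3r and Il7r, the receptors for G-CSF and IL-7, were below 6 on every array. Only Csf1r, the M-CSF receptor of macrophages, was called in Cbfb-/- blood, where it fell by 2.39, while 2 genes were called as lower without Cbfb-/- array 1, WT array 1 or WT array 4.

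**Figure D3:**
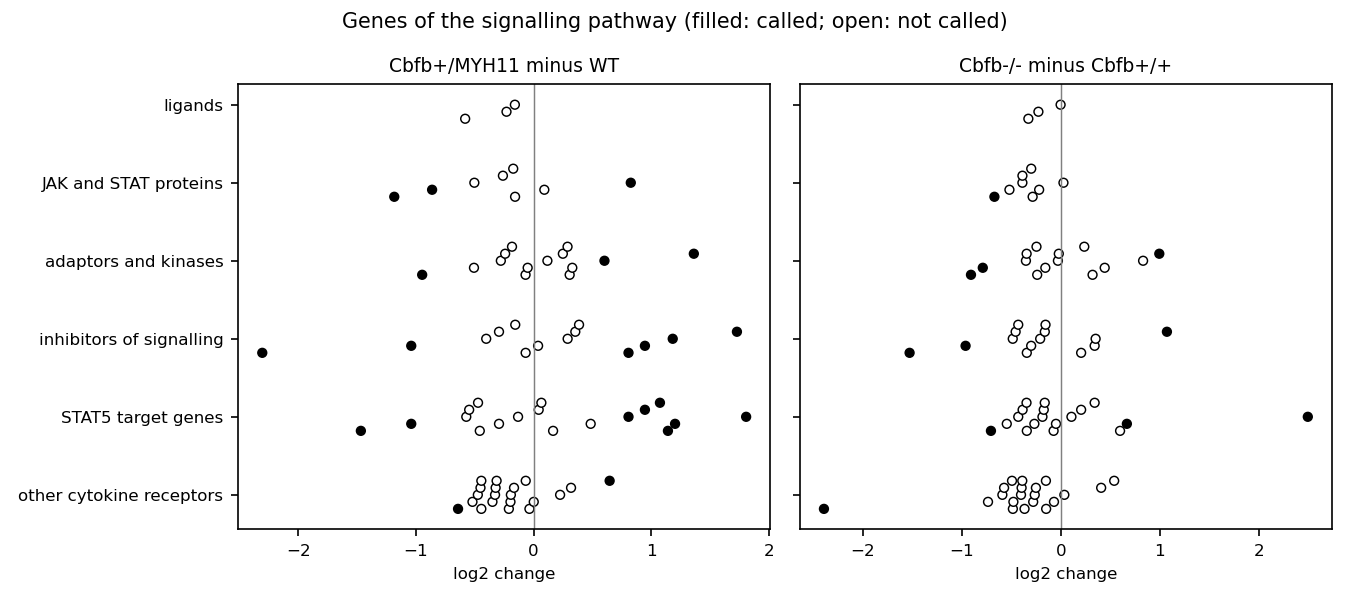
Log2 change (horizontal axis) of each measured gene of the ligand, JAK and STAT, adaptor, inhibitor, STAT5 target and other cytokine receptor lists, Cbfb+/MYH11 minus WT on the left and Cbfb-/- minus Cbfb+/+ on the right; filled points are called and open points are not. On the left, filled points lie on both sides of 0 in every list but the ligands, none beyond 2.30 from 0, against 4.07 and 5.59 for the beta chain genes. Of the 20 other cytokine receptors, only 5 had a log2 value of at least 6 on at least 3 arrays.

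Transcription factors known to bind receptor chain genes or to set the lineages that carry them made up the next list. Of 13 measured, 6 rose and 1 fell in Cbfb+/MYH11 blood (median 0.57). Gata2, a factor of progenitors and mast cells, rose by 3.51, Cebpa, a factor of granulocytes, by 2.64, Mitf, a factor of mast cells, by 2.37, Ikzf1, a lymphoid and myeloid factor, by 1.35, and Gata1, the red cell and mast cell factor, by 0.77 (0.51 and not called with quantile normalization). Spi1, which encodes PU.1 and was named after its values were seen because of the ETS letters searched above, rose by 1.38. Irf8, a factor of macrophages and dendritic cells, fell by 0.66, a call lost with centred arrays (-0.55), within arrays 3 and 4 (-0.44), and without WT array 1 (-0.48), Cbfb+/MYH11 array 2 or Cbfb+/MYH11 array 4 (both -0.58). In Cbfb-/- blood 0 of 13 rose and 2 fell (median -0.43), Gata2 by 0.78 and Cebpa by 0.74. The Cebpa call was lost when any 1 array of that cross was left out, and with the replicate block. The Gata2 call was lost when any of them but Cbfb-/- array 3 was left out (-0.44 without Cbfb-/- array 1), without any 1 Cbfb+/MYH11 array and with centred arrays (-0.73). The difference of the 2 effects was called and positive for 8 of 13, where 10.0% of all genes were called for it (6.27% positive and 3.77% negative). Runx1, the partner of CBFB, was at -0.23 in Cbfb+/MYH11 blood and -0.32 in Cbfb-/- blood, neither called.

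Some markers of mast cells and basophils, which carry these receptors, rose along with the beta chains. Of 12 measured, 5 rose and 0 fell in Cbfb+/MYH11 blood (median 0.02): Cd200r3 by 6.05, Ms4a2, a chain of the IgE receptor, by 4.83, Hdc, the histamine-making enzyme, by 3.08, Cpa3, a mast cell protease, by 2.59, and Slc18a2, a monoamine transporter, by 1.47. The other 7, namely Fcer1a, the IgE-binding chain, and the proteases Mcpt1, Mcpt4, Mcpt8, Cma1, Tpsb2 and Tpsab1, were below 6 on every Cbfb+/MYH11 array. In the Cbfb-/- cross 0 of 12 rose and 2 fell (median -0.25). There Slc18a2 fell by 1.85 and Cpa3 fell by 0.78. The mean of the 12 markers per array was 5.47 to 5.61 in Cbfb+/MYH11 blood, against 3.98 to 4.41 in WT blood, and 3.75 to 3.87 in Cbfb-/- blood, against 4.14 to 4.24 in Cbfb+/+ blood. Their part in the rise of the beta chains was not tested.

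Eosinophil markers were below 6 on all arrays, with 1 of 5 up in Cbfb+/MYH11 blood, Prg2, a granule protein, by 1.08. Within arrays 1 and 2 Prg2 was at 0.76 and not called (limma adjusted p = 0.0687). Macrophage markers fell in both mutants, 8 of 12 in Cbfb+/MYH11 blood and 10 of 12 in Cbfb-/- blood, with 0 up, although 3 were called as higher within arrays 3 and 4 and 1 without WT array 2. Their mean per array was 5.06 to 5.14 in Cbfb+/MYH11 blood, against 5.58 to 7.38 in WT blood, and 4.97 to 5.21 in Cbfb-/- blood, against 6.92 to 6.99 in Cbfb+/+ blood. The wide WT range lay between the array pairs: Mrc1, the mannose receptor, was at -5.33 within arrays 1 and 2 and at -2.36 within arrays 3 and 4. Neutrophil markers fell for 2 of 9 in Cbfb+/MYH11 blood and 3 of 9 in Cbfb-/- blood, among them Mpo, the myeloperoxidase of granules, at -2.08 and -2.15. Most of these were dim too, as only 1 of the 9 had a log2 value of at least 6 on at least 3 arrays. In Cbfb-/- blood, where most macrophage markers fell, the single-gene beta chain probe sets were at 0.00, -0.01 and -0.14. The part of macrophages and neutrophils in the values of the beta chains was not tested.

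The genes whose values were most like the beta chains over the 14 arrays followed the same split of 4 Cbfb+/MYH11 arrays against 10 others. Of 7391 other genes, each by 1 probe set, Csf2rb2 was most like Csf2rb (Pearson r 0.996), then Dtwd1, Slc43a3, Pfkp, Cd200r3, Padi3, Itgb7 and Ptdss2, the last with r of 0.985. For Csf2rb the closest were Csf2rb2, Cd200r3 and Pfkp, a phosphofructokinase of glycolysis, followed by Padi3, Asns, Dtwd1, 1700042O10Rik and Sec11c (0.990). These r describe mainly 1 difference between groups, on arrays that may share pools, and carry no test. In Cbfb+/MYH11 blood Pfkp was 3.87 higher, Padi3, which encodes a peptidylarginine deiminase, 3.397, Itgb7, an integrin beta chain of mast cells and lymphocytes, 1.94, and Asns, the asparagine synthetase, 1.83, all called by limma. None of these genes was called in Cbfb-/- blood. They were chosen for likeness to the beta chains on these same arrays, so both results largely follow from that choice. Pfkp, Padi3, Cd200r3 and 1700042O10Rik reached at most 5.23, 3.99, 2.92 and 3.98 on the other 10 arrays. They therefore passed the filter of 6 on at least 3 arrays only through the Cbfb+/MYH11 arrays.

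**Figure D4:**
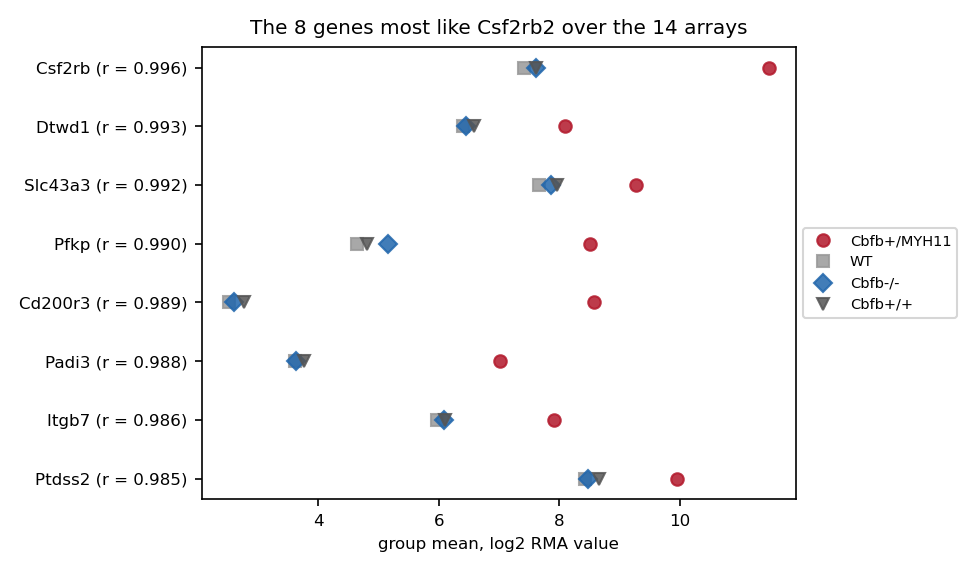
Group means (log2 RMA value, horizontal axis) of the 8 genes with the highest Pearson r to Csf2rb2 over the 14 arrays; circles are Cbfb+/MYH11, squares WT, diamonds Cbfb-/- and triangles Cbfb+/+. In each row the Cbfb+/MYH11 mean stands apart to the right, and the other 3 means lie close together.

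The alpha chains had other and looser companions. Il3ra was most like H2-T24 (r 0.951), an MHC class I-like gene, then Zfp703 (0.938) and 2010109A12Rik (0.934), all of which were highest in Cbfb+/+ blood. H2-T24 fell by 0.67 in Cbfb-/- blood. Csf2ra was most like Trir (0.905) and Il5ra like Tmem94 (0.840), neither called in either mutant. The dim members' r rests on signal near background.

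The 5 genes lie on 4 chromosomes, with Csf2rb and Csf2rb2 side by side on chromosome 15 in the RefSeq order, Csf2ra on 19, Il3ra on 14 and Il5ra on 6. Only a microRNA gene, Mir7676-1, lies between the beta chain genes in that order. Of the 8 measured neighbours, 4 on each side, none was called in Cbfb+/MYH11 blood, where 18.4% of all genes were called. With only 8 genes, the lack of calls is not far from that share. Pvalb and Tex33 were also dim, with at most 4.95 and 4.47 on any array. Ncf4, a subunit of the phagocyte NADPH oxidase and next to Csf2rb2, averaged 10.61 in Cbfb+/MYH11 blood, against 10.54 in WT blood, a log2 change of 0.07 (SE 0.10, limma adjusted p = 0.579). Cacng2 was at -0.40, Pvalb at -0.44 and Tex33, next to Csf2rb, at -0.32, not called. Cacng2 was called with quantile normalization (-0.62) and Pvalb within arrays 1 and 2 (-0.59). Kctd17 alone was called in Cbfb-/- blood, where 12.8% of all genes were called. It rose there by 0.70 (limma adjusted p = 0.0135), a call lost without Cbfb-/- array 3 (0.49).

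**Figure D5:**
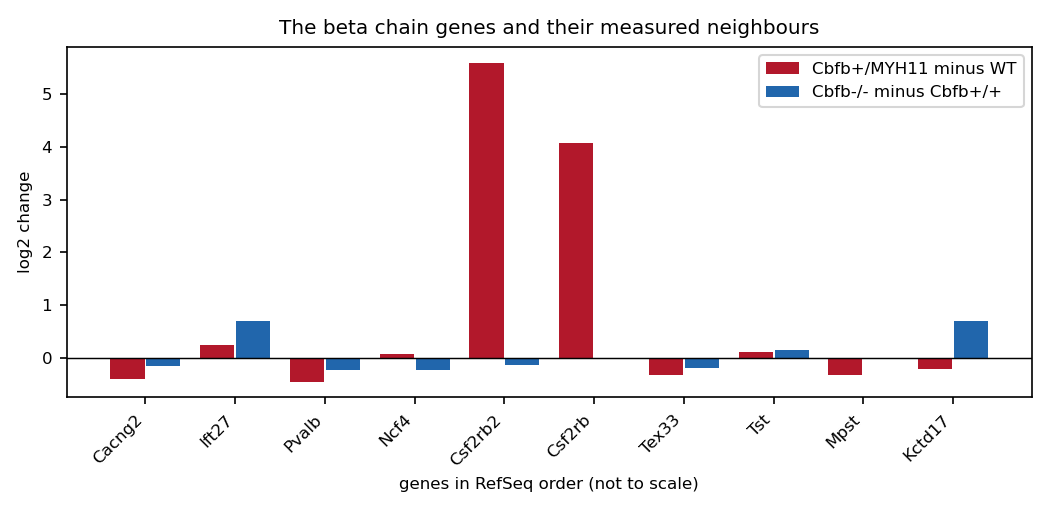
Log2 change (bars from 0) of Csf2rb2, Csf2rb (its probe set with the highest mean) and the 4 measured genes on each side in RefSeq gene order, Cbfb+/MYH11 minus WT in red and Cbfb-/- minus Cbfb+/+ in blue. The red bars of the beta chain genes reach 5.59 and 4.07, while those of the 8 neighbours stay between -0.44 and 0.24.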

How the data were processed

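The deposited table holds log2 values of 45101 probe sets on 14 arrays. The authors' values come from the RMA method of Affymetrix Expression Console, per the submitters' processing notes, with versions not given in the sources used here. RMA subtracts background, normalizes probes by quantiles and summarizes them over arrays together, so low values are compressed and changes of dim probe sets understated. The quantile normalization among the alternatives is a further one, applied to the deposited probe set values. Gene names are those of the platform annotation: 34945 probe sets had 1 symbol, 932 several and 9160 none. The 64 array controls were left out.

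The remaining 45037 were fitted with limma 3.58.1 in R 4.3.3 (lmFit, eBayes) over the 4 groups, with Benjamini-Hochberg adjustment over all of them. Calls needed an adjusted p under 0.05 and 1.5-fold. The number of arrays limits the precision, with 10 residual degrees of freedom. The code was tested on simulated data. Members, gene lists and the rule for named genes were chosen with earlier results of these data known. Named were all members and ligands, the 4 genes of each list with the smallest adjusted p in Cbfb+/MYH11 and 2 in Cbfb-/- blood, the 8 or 3 genes most like each member, 4 neighbours on each side, and, after values were seen, Spi1 and other list members singled out.

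Same-numbered arrays of the Cbfb+/MYH11 cross deviated together (r of 0.521, 0.407, 0.499 and 0.499 over 7392 genes). Others did so as much: Cbfb+/MYH11 array 4 had r of 0.514 with WT array 3, and array 2 had 0.417 with WT array 1. The check therefore matches arrays 1 and 2, and arrays 3 and 4, across the genotypes, but does not pair arrays by number. In the Cbfb-/- cross r of same-numbered arrays was 0.034, 0.011 and 0.017. Alternatives covered normalization, filters, probe set choice, blocks, array pairs, pools and leaving out arrays.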

Additional observations from a re-analysis of the deposited data

Results flagged for a closer look

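On single arrays, 5 of 166 groups of 4 arrays held 1 array far from the rest by Dixon's 95% limit, where chance flags about 5% of groups of independent arrays, which arrays 1 and 2, and 3 and 4, may not be. On WT array 1, Csf2rb2 read 5.17 (next 5.62) and Nras 7.31 (next 7.76). On WT array 4, Dok1 read 5.80 (next 5.97). On Cbfb+/MYH11 array 1, Prg2 read 4.35 (next 5.43) and Padi3 6.57 (next 7.13).

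The effect of the fusion differed from that of Cbfb loss, by the limma test of the difference itself, for 39 of 83 features examined, against 10.0% of all genes. Most of the 83 were named for a small adjusted p in 1 of the mutants or for likeness to the beta chains. Their share largely follows from that choice and cannot be weighed against the 10.0%. For genes picked by likeness to the beta chains on these same arrays, a positive difference was largely fixed by the choice. For the receptor chains the difference was 4.06 and 4.32 (Csf2rb), 5.72 (Csf2rb2) and 2.30 (the probe set of both). Within the signalling lists it was 1.21 for Jak2, 1.08 for Irs2, 2.69 for Inpp5d, -0.61 for Socs3, 1.67 for Dok1, 1.24 for Myc, -1.12 for Ccnd1, 1.41 for Ccnd3, -1.57 for Fos, 1.13 for Epor and 2.62 for Csf1r. The fusion effect on Csf1r was 0.23 and not called, and its sign turned between array pairs. It was -1.08 within arrays 1 and 2 and 1.53 within arrays 3 and 4. Among regulators the difference was 1.20 for Gata1, 4.30 for Gata2, 3.39 for Cebpa, 2.91 for Mitf, 1.55 for Ikzf1, 1.08 for Zfpm1 and 2.04 for Spi1. Among cell markers it was 5.38 for Ms4a2, 3.37 for Cpa3, 3.42 for Hdc, 6.21 for Cd200r3, 3.32 for Slc18a2, 1.30 for Prg2 and 1.10 for Klf1. Among genes like the beta chains it was 3.52 for Pfkp, 3.53 for Padi3, 1.69 for Asns, 1.83 for Dtwd1, 4.33 for 1700042O10Rik, 3.05 for Sec11c, 1.71 for Slc43a3, 1.97 for Itgb7 and 1.71 for Ptdss2. For the neighbour Kctd17 it was -0.91.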

How the results depend on the processing

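The rises of Csf2rb and Csf2rb2 in Cbfb+/MYH11 blood were called under each of the 28, 26 and 28 settings that gave a value for their 3 probe sets, with log2 changes of 3.86 to 4.26, 4.09 to 4.42 and 5.45 to 5.70. The rise of the probe set of both was lost only with 6 putative pools (2.29, adjusted p = 0.0633). That fit has 1 pool for each group of the second cross, assumed to vary like the first, and called 58 probe sets in Cbfb+/MYH11 blood and 0 in Cbfb-/- blood, the difference and the littermates (6306, 1728, 1924 and 1736 at an unadjusted p under 0.05). It ended the calls of the differences (4.06, 4.32, 5.72 and 2.30) and of Cbfb+/+ over WT (1.00 for Csf2rb and 0.61 for Csf2rb2, adjusted p = 0.99986), and most calls of other named genes. Whether arrays 1 to 4 come from 2 pools was not tested.

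The replicate block changed no member's call but moved the count of the difference to 5085 probe sets, against 3385 without it, and the array pair block to 5870. With 1 probe set per gene after the filter the counts were 2671, 1935, 1548 and 830 for the 4 comparisons, and with the mean of a gene's probe sets 2514, 1865, 1823 and 622, from fewer features tested. That mean put Csf2rb at -0.0021 in Cbfb-/- blood and made Cbfb+/+ over WT called for it (0.60). With no fold floor the counts were 11422 in Cbfb+/MYH11 blood and 3949 between littermates, and Il3ra passed at -0.32 and 0.36. Of the calls, 78.2% were higher in Cbfb+/MYH11 blood, 61.4% after quantile normalization and 89.0% once arrays were centred, while in Cbfb-/- blood these shares were 68.7%, 55.3% and 75.0%.

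Quantile normalization also moved the genes that fell in Cbfb-/- blood to 3 of the JAK and STAT genes, 4 inhibitors, 3 STAT5 targets, 3 other receptors and 4 regulators. With each cross fitted alone the calls of Irf8 and Il13ra1 in Cbfb+/MYH11 blood and of Gata2 in Cbfb-/- blood were lost, and by the mean of probe sets those of Gata2 (-0.57) and Cblb (0.51) in Cbfb-/- blood.

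Signs of uncalled values near 0 turned. With quantile normalization these were Csf2ra (1420703_at) 0.059, Il5ra 0.048, Ccr3 0.088, Ncf4 -0.19, Tst -0.028, Pim1 -0.18 and, in Cbfb-/- blood, Csf2rb -0.22. With centred arrays they were Csf2ra 0.059, Il5ra 0.042, Ccr3 0.081 and, in Cbfb-/- blood, Csf2rb (1421326_at) 0.046 and the shared probe set 0.045. By the mean of its probe sets Runx1 was at 0.18. Within arrays 1 and 2 they were Il5ra 0.011, Prg3 -0.13, Ncf4 -0.069 and Tst -0.15, and within arrays 3 and 4 Csf2ra 0.051 and Ccr3 0.015. Leaving out 1 array gave, in Cbfb+/MYH11 blood, -0.11 to 0.0020 for Csf2ra (1420703_at), -0.57 to -0.18 for Csf2ra (1420704_at), -0.041 to 0.16 for Pim1, -0.16 to 0.051 for Il5ra, -0.099 to 0.066 for Ccr3 and -0.012 to 0.25 for Tst. In Cbfb-/- blood it gave 2879 (without Cbfb-/- array 1) to 5015 probe sets called, -0.046 to 0.052 and -0.058 to 0.038 for Csf2rb, -0.20 to 0.11 for Csf2ra (1420703_at), -0.70 to -0.30 for Csf2ra (1420704_at), -0.018 to 0.096 for Il5ra and -0.066 to 0.087 for the shared probe set. For the difference it gave -0.10 to 0.36 and -0.16 to 0.14 for Csf2ra. For Cbfb+/+ over WT it gave 0.48 to 0.66 for Csf2rb2, -0.25 to 0.14 and -0.23 to 0.072 for Csf2ra and -0.13 to 0.053 for Il5ra. The cause of these shifts was not tested. Signal near background limits the alpha chains and ligands.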

Other observations

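The red cell genes gave a further view of the same blood. In Cbfb+/MYH11 blood Klf1, a red cell transcription factor, rose by 0.86, and Hbb-b2, an adult-type globin gene, fell by 1.05, and in Cbfb-/- blood Hbb-b2 fell by 0.74. Hba-a1, an adult globin gene, was also called there without Cbfb-/- array 2 (-0.67) or Cbfb+/+ array 2 (-0.68). The Hbb-b2 changes fell short of the fold floor when the probe sets of a gene were averaged (-0.54 and -0.41). Hbb-bh1, an embryonic globin gene, was 0.50 higher in Cbfb+/MYH11 blood, under the fold floor but past it with centred arrays (0.61).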
